A study of Mus musculus with 10 samples.

Results

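The 46 genes described here encode factors of ribosome biogenesis that act mainly in the nucleolus, and their ribosome footprints were followed in mouse embryonic stem (ES) cells with and without 3 inhibitors of translation. The members were taken from a list of gene symbols by a rule that uses no measured value, and each was matched to its listed transcript through GENCODE M21. All 46 were found among 15269 listed transcripts, of which 14534 were taken as coding. By role, 6 belong to RNA polymerase I and the organisation of the nucleolus, 8 to the small nucleolar ribonucleoprotein particles (snoRNPs), 14 to the small subunit processome, 5 to later maturation of the 40S subunit and 13 to assembly of the 60S subunit.

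Ribosome profiling sequences the RNA fragments that ribosomes protect from RNase, called footprints. All cells were CGR8, a feeder-free mouse ES cell line of a 129 strain grown with LIF, and the comparisons hold for this line. The groups were untreated control cells, cells given 1 µM DMDA-PatA for 10 min, cells given 2 µg/ml harringtonine for 10 min, and cells given 0.2 mg/ml puromycin for 20 min, with an equal share of the solvent DMSO in all samples. Each group had 2 ribosome profiling libraries, described by the methods as biological replicates, and 2 libraries of whole transcriptome reads came from untreated cells. DMDA-PatA is an analogue of pateamine A that targets the RNA helicase eIF4A, harringtonine holds ribosomes in their first rounds of elongation, and puromycin mimics an aminoacyl-tRNA and ends nascent chains. The doses and the incubation times differed, so a difference between drugs is one between these treatments.

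Ribosomes are made in the nucleolus, where RNA polymerase I transcribes a long precursor of the ribosomal RNAs. Box C/D snoRNPs add methyl groups and box H/ACA snoRNPs form pseudouridines in this precursor. The small subunit processome, a large particle built around the U3 snoRNA, folds and cuts its 5' part into the pre-40S subunit, while other factors assemble the pre-60S subunit and escort both to the cytoplasm. ES cells divide rapidly and depend on a high supply of new ribosomes.

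The reads on coding ORFs were 9104220 and 10614247 in the control libraries, 618334 and 748665 under DMDA-PatA, 1944784 and 1672087 under harringtonine, 872713 and 1547460 under puromycin, and 16649611 and 38046741 in the transcriptome libraries. The members took 1.75% and 1.81% of them in the control, and 1.02% and 0.973% in the transcriptome. The median ratio of replicate 2 to replicate 1, over all ORFs with reads in both, was 0.894 in the control, 1.52 under DMDA-PatA, 0.576 under harringtonine and 1.03 under puromycin, with the size factors as deposited. Whether the DMDA-PatA libraries carry the harringtonine size factors, and the reverse, could not be settled. An exchange would multiply the normalized values of the first and second DMDA-PatA library by 1.61 and 0.862 and those of the harringtonine libraries by 0.622 and 1.16, and the ratios of replicates would be 0.815 and 1.07. All 9 ES cell markers examined carried footprints, from Klf4 at 287 to Dppa5a at 34222 normalized footprints per kb of ORF in the control. Pou5f1 stood at 5285 and Nanog at 4351. Markers of other cells carried footprints too, from Sox17 at 4.72 to Col1a1 at 3428 per kb, and T, at 486, lay above Klf4. Col1a1 is a collagen gene of fibroblasts. In the transcriptome it stood at 30848 normalized reads per kb, above every ES cell marker, of which Zfp42 was highest at 10409. In such bulk samples fewer cells of a type and less RNA per cell cannot be told apart, and the part of these levels in the results was not tested.

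The sequences of some members bear on how far their values can be read. Reads with several matches on the genome were left out by the authors, and processed pseudogenes are retrotransposed copies of mRNAs. Every stretch of 30 bases of each ORF was therefore searched on both strands of the GRCm38 chromosomes, which could be done for the 45 members placed in GENCODE M21 (not for Nop58). The median member had 2.39% of its stretches at a further place, and 37 members had less than 10%. In 7 members the share was over 25%, a limit chosen after seeing the values. It was 91.5% in Fbl, 84.3% in Ddx18, 53.4% in Pes1, 52.4% in Wdr12, 42.7% in Nop56, 35.6% in Nop10 and 28.7% in Imp3. The lines below give, for 5 of these, a stretch of the ORF with 1 further exact match in a processed pseudogene, since a footprint of this sequence has no single place on the genome.
Fbl: gtttcagcccccgtgggggtggctttggtg
Ddx18: atgtcgcagttacagatgaaactcctgcgc
Wdr12: atggcacaactccaggcacgtttctacagc
Nop10: aatttgaccctatgggacaacagacttgct
Imp3: atggtgcggaagcttaagttccacgagcag
The Fbl transcript lies on chr7:28169710-28179269 (+ strand), and its stretch, from ORF position 11 to 40, has a copy at chr17:6122125-6122154 in Gm5812. The Ddx18 transcript lies on chr1:121553835-121567989 (- strand), and its stretch, from ORF position 1 to 30, has a copy at chr6:108565559-108565588 in Gm16433. The Wdr12 transcript lies on chr1:60076868-60098645 (- strand), and its stretch, from ORF position 1 to 30, has a copy at chr7:13178903-13178932 in Gm4879. The Nop10 transcript lies on chr2:112261926-112263269 (+ strand), and its stretch, from ORF position 56 to 85, has a copy at chr16:91458476-91458505 in Gm46562. The Imp3 transcript lies on chr9:56937475-56938398 (+ strand), and its stretch, from ORF position 1 to 30, has a copy at chr5:23831594-23831623 in 4933427G23Rik. The Wdr12, Ddx18 and Imp3 stretches begin with the start codon of the ORF. How much of these genes' values depends on such copies was not tested, and counts are also given without the 7 members.

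The start sites are shown because DMDA-PatA targets a factor of initiation and harringtonine holds ribosomes in their first rounds of elongation. In 7 members whose listed ORF begins at the ATG of GENCODE M21, the 9 bases before the start codon, the ATG in capitals and the base after it read as follows.
Nhp2: gttgctaagATGa
Nop10: agggcagttATGt
Nob1: acagccaacATGg
Polr1b: ggcagaagcATGg
Wdr12: tattcagccATGg
Nol6: ccggcttggATGc
Utp6: tccagcctcATGg
A purine 3 bases before the ATG, a feature of efficient start sites, was present in 43 of 45 members and in 85.1% of 11083 coding transcripts, and Nol6 and Utp6 lacked it. A G directly after the ATG was present in 25 members. An ATG within the 5' UTR was found in 18 of 45 members, against 52.1% of the same 11083 coding transcripts. Those 11083 have the ORF at its listed place in GENCODE M21, with 3 or more bases of 5' UTR. Only 30 of the 45 members have it there, so the shares come from unlike sets. The 5' UTRs listed for the members were short, from 7 nt in Imp3 to 683 nt in Wdr12 with a median of 95 nt, where the median coding transcript had 164 nt. Their ORFs ran from 192 nt in Nop10 to 8367 nt in Utp20 with a median of 1698 nt, against 1335 nt. For 30 of the 45 members the listed ORF starts where GENCODE M21 places it. For the others, including Ncl and Utp15, the only ATG-to-stop frame of the listed length lies at another position of the GENCODE M21 transcript. Their listed 5' UTR length therefore differs from this annotation.

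In untreated cells the members spanned a wide range of footprint density. Per kb of ORF, the mean normalized control value ran from 23.3 ± 7.51 (SD, n = 2) for Fbl to 14998 ± 251 for Ncl, with a median of 1474. Ncl encodes nucleolin, an abundant nucleolar protein that binds nascent ribosomal RNA. Fbl encodes fibrillarin, the methyltransferase of box C/D snoRNPs and itself an abundant protein, and its low value stands beside an ORF of which 91.5% is repeated elsewhere in the genome. Its reads were 15 and 31 in the control libraries and 20 and 16 in the transcriptome libraries, so that it was low in both kinds of library. Between these lay the other members with 6003 ± 688 per kb for Nhp2 and 5145 ± 545 for Mybbp1a as examples of high density, and 248 ± 49.2 for Wdr12 and 120.1 ± 13.8 for Ddx18, a nucleolar helicase, among the lowest.

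**Figure D1:**
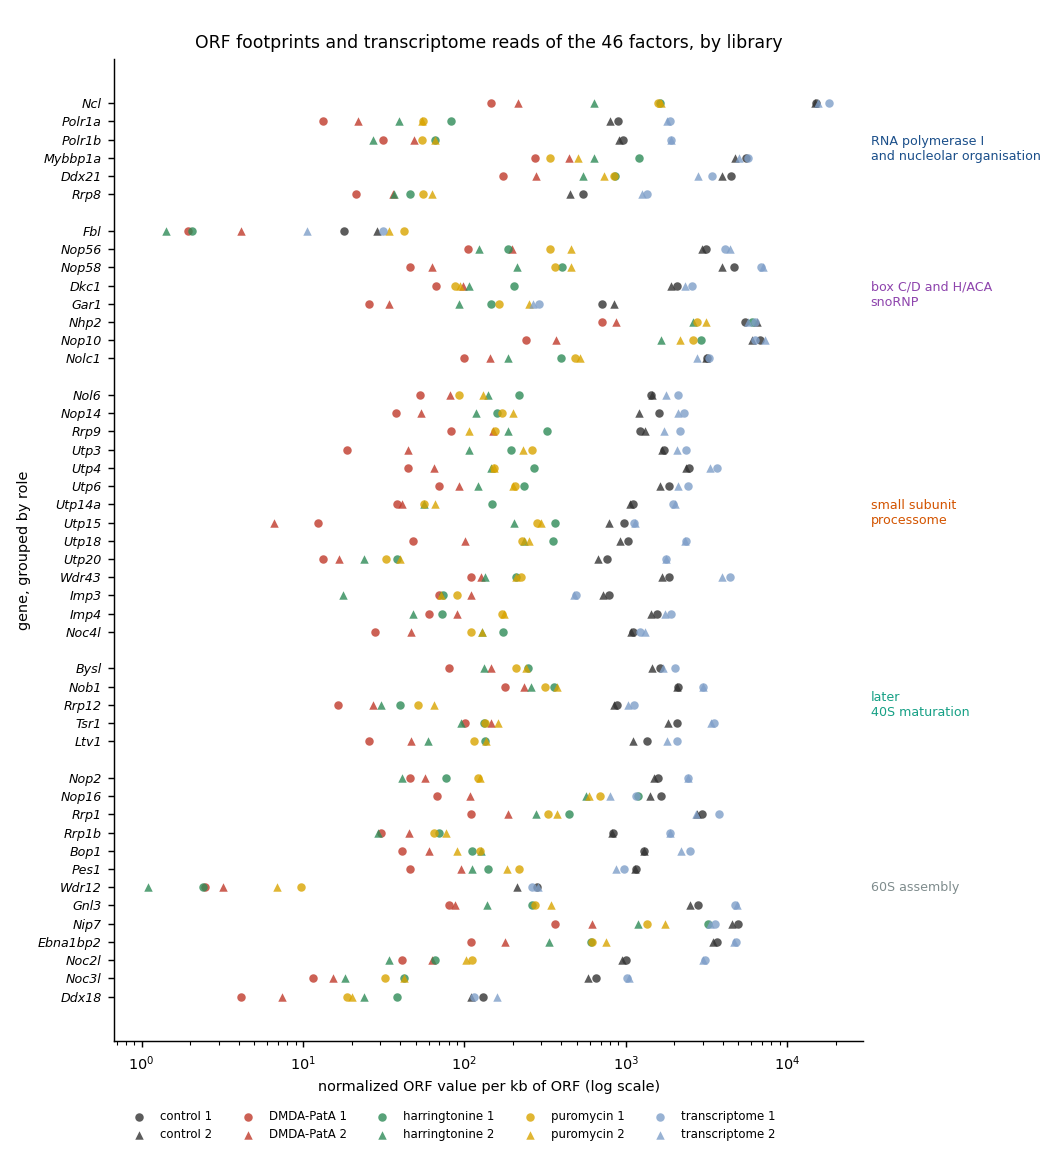
Normalized values per kb of ORF (horizontal log axis) for each of the 46 members, grouped by role, with 1 point for each of the 10 libraries. Points of the 2 transcriptome libraries are transcriptome reads, on a scale separate from that of the footprints. The control libraries lie to the right of the drug libraries for all members but Nhp2, where 1 harringtonine library falls between the controls, and Fbl, whose puromycin libraries are above its controls.

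The translation of the members relative to their mRNA was examined first, as it needs no drug. Footprints in the control were compared with transcriptome reads on the same ORF, both scaled with TMM factors (trimmed mean of M-values), which set the change of the typical transcript close to 0. In edgeR's quasi-likelihood test (adjusted over 14017 features by Benjamini-Hochberg), 41 of the 46 members had a higher ratio of footprints to transcriptome reads and 0 had a lower one, beside 34% of all features called higher and 36.4% called lower. At an unadjusted p under 0.05, 42 members were higher and 0 lower in edgeR, and DESeq2 gave 41 higher and 0 lower at its adjusted p. The median log2 ratio was 1.06 over the members and -0.04 over all features. Without the 7 members with repeated stretches, all of which were called higher, it was 0.93 over 39 members. All 8 snoRNP proteins and all 5 later 40S factors were called higher, and so were 5 of 6 in the RNA polymerase I group, 11 of 14 in the processome and 12 of 13 in 60S assembly. The snoRNP count includes Fbl, Nop56 and Nop10, which have repeated stretches, and the Fbl ratio rests on few reads.

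The highest ratios belonged to Gar1, Nop16 and Imp3. Gar1, a protein of H/ACA snoRNPs, had 495 and 583 normalized footprints in the control libraries and 202 and 184 normalized reads in the transcriptome libraries, whose scales are separate, and a log2 ratio of 2.96 (SE 0.15, adjusted p = 1.19e-09). In 60S assembly, Nop16 had 896 and 771 footprints, 633 and 435 transcriptome reads and a log2 ratio of 2.12 (SE 0.15, adjusted p = 2.17e-08). Imp3, part of the U3 snoRNP, had 437 and 399.8 footprints, 273 and 265 transcriptome reads and a log2 ratio of 2.09 (SE 0.13, adjusted p = 4.97e-09). These 3 members have short ORFs, of 693 nt in Gar1, 543 nt in Nop16 and 552 nt in Imp3. The lowest ratios were -0.19 (SE 0.09, adjusted p = 0.077) for Noc2l, 0.05 (SE 0.11, adjusted p = 0.728) for Rrp8 and 0.15 (SE 0.09, adjusted p = 0.16) for Utp20. These 3 did not pass the test, nor did Utp18 and Wdr43. Noc2l, a 60S factor, had 2259.9 and 2132 footprints against 6952 and 6809 transcriptome reads. The adjusted p of Noc2l was 0.0470 without the first transcriptome library and 0.00449 with scaling to total ORF reads, both times with a lower ratio.

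**Figure D2:**
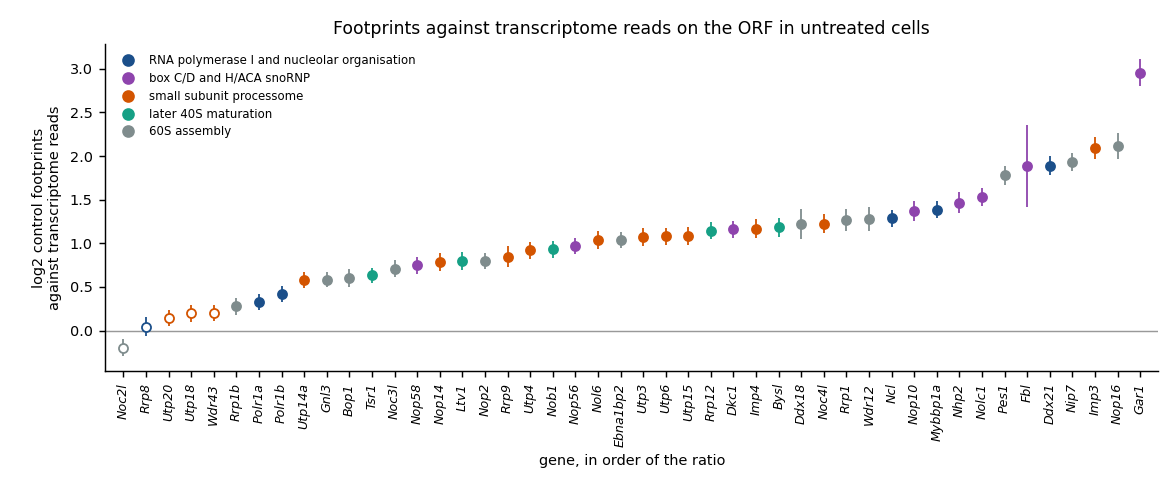
Log2 ratio of control footprints to transcriptome reads on the ORF for the 46 members in order, on the TMM scale, with bars of 1 standard error. Points run from -0.19 for Noc2l to 2.96 for Gar1, and 41 members pass the adjusted p of 0.05 on the higher side.

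Members with short ORFs tended to have the higher ratios. Across the 46 members the log2 ratio had a Pearson correlation of -0.54 with the log2 of ORF length and a Spearman correlation of -0.49. Across 13717 coding transcripts of the same libraries these were -0.37 and -0.44. Members are not independent replicates of each other, and each point shares its libraries and their depth with all others.

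All 3 drugs lowered the footprints on the members' ORFs when libraries were scaled by the authors' spike-in size factors. With DMDA-PatA all 46 members were lower by edgeR's quasi-likelihood test (adjusted p under 0.05 over 12499 features), where 99.3% of all features were. With harringtonine 44 members were lower beside 92.9% of all features, and under puromycin 45 beside 90.1%. Fold inhibition, the mean control value divided by the mean drug value, had a median over the members of 21.7 under DMDA-PatA (28.8 and 18.1 in the same-numbered pairs), of 10.9 under harringtonine (8.90 and 14.7), and of 8.62 under puromycin (9.20 and 8.15). With the size factors of those drugs exchanged, the medians would be 18.7 under DMDA-PatA (17.9 and 21 in the pairs) and 13.7 under harringtonine (14.3 and 12.6). Expressed as footprints left, the members kept a median of 4.61%, 9.17% and 11.6% of their control values, in the same order of drugs. The medians over 12298 coding transcripts were 4.92%, 12.7% and 17.6%. No member was called higher with any drug, where 0.056%, 0.512% and 0.352% of all features were, and at an unadjusted p under 0.05 or in DESeq2 the number was 0 as well.

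Both DMDA-PatA libraries lay below both control libraries for 46 of 46 members, beside 99.5% of all features. The same held for 45 under harringtonine, beside 95.6%, and 45 under puromycin, beside 95.8%, so the members' counts stand near the background. The exception under harringtonine was Nhp2, a protein of H/ACA snoRNPs, whose ORF carried 2532 and 2979 normalized footprints in the control libraries, 327 and 403 under DMDA-PatA, 2766 and 1193 under harringtonine and 1276 and 1437 under puromycin. One harringtonine library lay between the controls and the other below them, and the log2 change on the authors' scale was -0.48 (SE 0.45, adjusted p = 0.292) in edgeR. Nop16 did not pass under harringtonine either, with 646 and 310.1 normalized footprints against 896 and 771 and a log2 change of -0.80 (SE 0.43, adjusted p = 0.0675). With puromycin the exception was Fbl, with 41.4 and 33.6 against 17.7 and 28.1 in the control and a log2 change of 0.67 (SE 0.50, adjusted p = 0.186). Those Fbl values rest on 20 and 27 and on 15 and 31 reads. If the size factors were swapped between DMDA-PatA and harringtonine, an assignment the deposited values alone do not settle, 46 members were lower under harringtonine, and both harringtonine libraries lay below both controls for 46 of 46, Nhp2 included.

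Since nearly all transcripts fell, the members were next compared with the typical transcript. On this relative scale (TMM factors, same reads and same edgeR test), a change of 0 means the same fall as most transcripts. With DMDA-PatA 16 members fell more and 5 fell less than this, beside 23.6% and 18.8% of all features. With harringtonine the counts were 26 and 8 of 46, beside 30% and 26.6%, and under puromycin 29 and 7, beside 24.9% and 24.3%. The median relative log2 change of the members was -0.23 under DMDA-PatA, -0.64 under harringtonine and -0.65 under puromycin, where all features had -0.12, -0.12 and -0.04. Without the 7 members with repeated stretches the counts were 15 lower and 4 higher, 23 and 6, and 26 and 5 of 39, and the medians were -0.38, -0.64 and -0.74. The 3 comparisons share the 2 control libraries, so their values are given side by side and are not independent of each other. Fitted with the control and DMDA-PatA libraries alone, 9 members were higher with that drug.

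**Figure D3:**
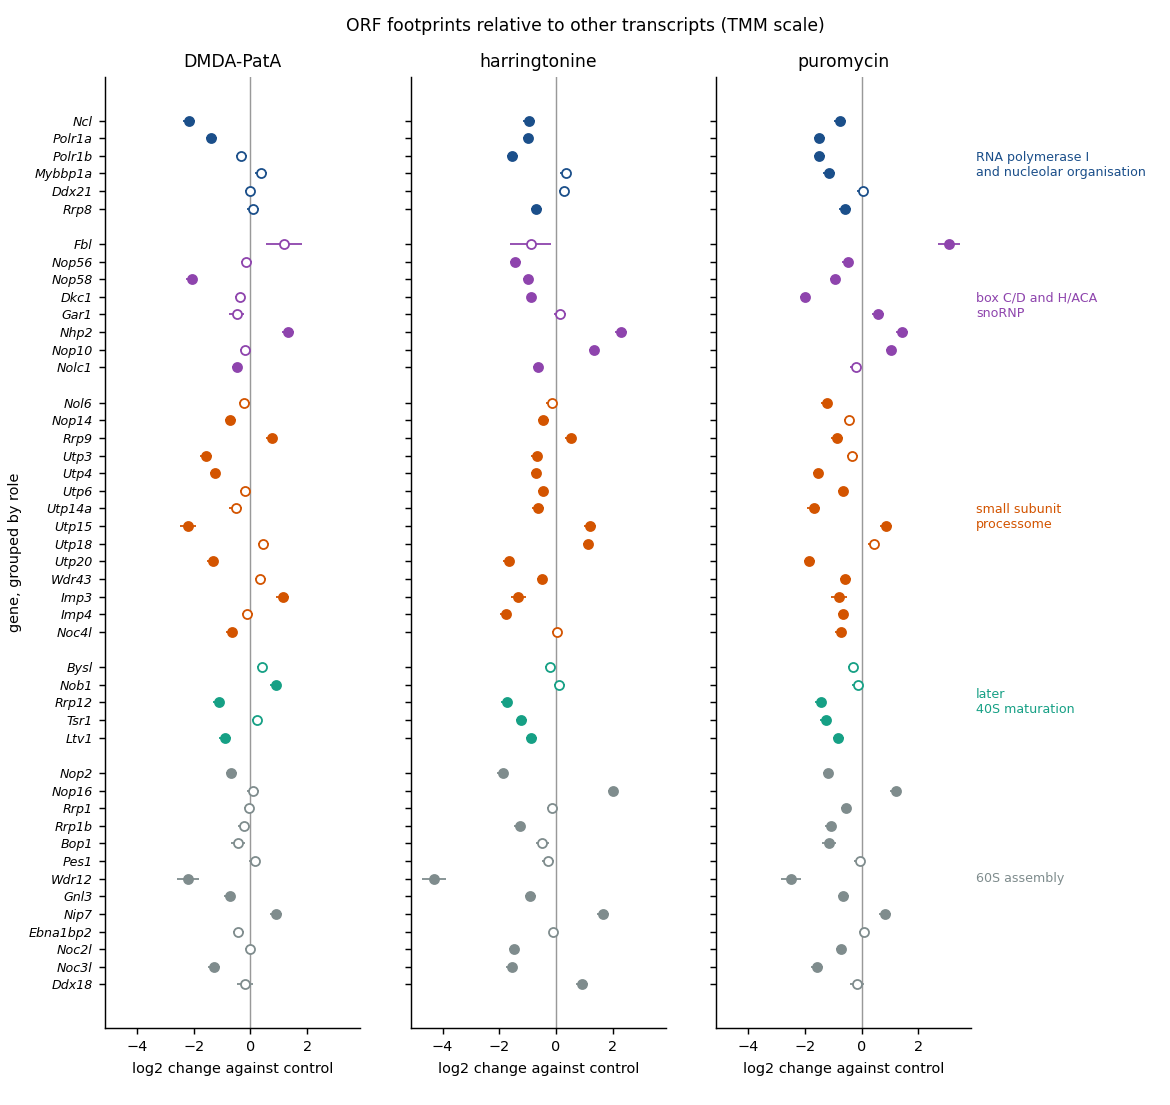
Relative log2 change on the ORF with each drug against the control for the 46 members, grouped by role, on the TMM scale with bars of 1 standard error. Filled points pass an adjusted p of 0.05 and open points do not, and most filled points lie left of 0 under harringtonine (26 of 34) and puromycin (29 of 36).

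In the group of RNA polymerase I and nucleolar organisation, 2 of 6 members were relatively lower under DMDA-PatA, 4 under harringtonine and 5 under puromycin, and no member was higher in the edgeR test. The ORF of Ncl carried 32187 and 31435 normalized footprints in the control libraries, 310.0 and 456 under DMDA-PatA, 3448 and 1345 under harringtonine and 3358 and 3497 under puromycin. Both DMDA-PatA libraries were far below the libraries of the other drugs. The relative log2 changes were -2.16 (SE 0.22, adjusted p = 2.46e-07) under DMDA-PatA, -0.96 (SE 0.21, adjusted p = 0.000487) under harringtonine and -0.76 (SE 0.21, adjusted p = 0.00439) under puromycin. Polr1a encodes the largest subunit of RNA polymerase I, and its ORF carried 4608 and 4136 normalized footprints in the control libraries, 68.8 and 114 under DMDA-PatA, 424 and 202 under harringtonine and 287 and 281 under puromycin. Its relative log2 changes of -1.38, -1.0 and -1.49, in the same order of drugs, all passed. Polr1b, the second largest subunit, had 3255 and 3095 in the control and 107 and 167, 224 and 92.4 and 186 and 224 with the drugs, and relative log2 changes of -0.33 (SE 0.19, adjusted p = 0.178) under DMDA-PatA, -1.54 (SE 0.19, adjusted p = 1.13e-06) under harringtonine and -1.49 (SE 0.20, adjusted p = 3.65e-06) under puromycin. Mybbp1a, a nucleolar protein that binds Myb, carried 22298 and 19192 normalized footprints in the control libraries, 1102 and 1789.8 under DMDA-PatA, 4845 and 2558 under harringtonine and 1377 and 2053 under puromycin. It passed only under puromycin, at -1.14 (SE 0.21, adjusted p = 0.000132), and under DMDA-PatA and harringtonine it stood at 0.36 and 0.34. Fits of the 2 groups alone gave Mybbp1a an adjusted p of 0.0154 under DMDA-PatA and 0.0322 under harringtonine, both higher. Ddx21, a nucleolar RNA helicase, had relative log2 changes of -0.01, 0.27 and 0.04, and passed with no drug.

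The 8 snoRNP genes were divided. In DMDA-PatA 2 were relatively lower and 1 higher, in harringtonine 4 and 2, and in puromycin 3 and 4. Nop58, a core protein of box C/D snoRNPs, carried 7596 and 6325 normalized footprints in the control libraries, 74.5 and 101 under DMDA-PatA, 644 and 339 under harringtonine and 589 and 732 under puromycin. Its relative log2 changes were -2.07 (SE 0.20, adjusted p = 1.22e-07) under DMDA-PatA, -1.0 (SE 0.18, adjusted p = 8.94e-05) under harringtonine and -0.94 (SE 0.18, adjusted p = 0.000248) under puromycin. Nop56, its partner in the same particles, had 5508 and 5189.6 in the control and 325 and 215 under harringtonine, where its relative log2 change was -1.44 (SE 0.20, adjusted p = 3.01e-06), and under DMDA-PatA it did not pass, at -0.15. The relative changes of this pair thus differed most under DMDA-PatA, although 42.7% of the Nop56 ORF is repeated elsewhere and no test of the pair was made.

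Among the H/ACA proteins, Dkc1 and Nhp2 differed in direction. Dkc1 encodes dyskerin, the pseudouridine synthase, and carried 3195 and 2904 normalized footprints in the control libraries, 102 and 149 under DMDA-PatA, 309 and 162 under harringtonine and 134 and 143 under puromycin, with relative log2 changes of -0.38 (SE 0.17, adjusted p = 0.0835) under DMDA-PatA, -0.87 (SE 0.17, adjusted p = 0.000214) under harringtonine and -2.0 (SE 0.19, adjusted p = 6.24e-08) under puromycin. Its fall relative to typical transcripts was largest under puromycin. Nhp2, whose values are given above, had relative log2 changes of 1.32 (SE 0.21, adjusted p = 4.69e-05) under DMDA-PatA, 2.30 (SE 0.21, adjusted p = 2.51e-08) under harringtonine and 1.42 (SE 0.21, adjusted p = 1.29e-05) under puromycin, higher with each drug. Nop10, with the shortest ORF, carried 1309 and 1163 normalized footprints in the control libraries, 46.1 and 71.4 under DMDA-PatA, 565 and 317 under harringtonine and 505 and 418 under puromycin. It was relatively higher under harringtonine, at 1.35 (SE 0.18, adjusted p = 1.78e-06), and under puromycin, at 1.03 (SE 0.18, adjusted p = 7.54e-05), and stood at -0.18 under DMDA-PatA, with 35.6% of its ORF repeated elsewhere. Fbl had relative log2 changes of 1.18 (SE 0.65, adjusted p = 0.149) under DMDA-PatA, -0.90 (SE 0.72, adjusted p = 0.304) under harringtonine and 3.07 (SE 0.38, adjusted p = 1.55e-06) under puromycin. The Fbl reads behind these values were 15 and 31 in the control, 3 and 5 under DMDA-PatA, 2 and 2 under harringtonine and 20 and 27 under puromycin. Under harringtonine 7.03% (exact 95% interval 1.84 to 19.2%, counting error only) of the control's normalized footprints were left.

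In the small subunit processome 6 of 14 members were relatively lower and 2 higher under DMDA-PatA, 9 and 3 under harringtonine, and 10 and 1 under puromycin. Utp15, of the subcomplex that binds the start of the precursor RNA, had relative changes that differed widely between DMDA-PatA and the other drugs. Its ORF carried 1547 and 1255 normalized footprints in the control libraries, 19.6 and 10.6 under DMDA-PatA, 575 and 323 under harringtonine and 447 and 470.0 under puromycin. The DMDA-PatA libraries were more than an order of magnitude below those of both other drugs, and the 3 drugs' libraries all lay below the controls. The relative log2 changes were -2.21 (SE 0.29, adjusted p = 4.59e-06) under DMDA-PatA, 1.20 (SE 0.21, adjusted p = 6.79e-05) under harringtonine and 0.85 (SE 0.21, adjusted p = 0.00265) under puromycin. The change under puromycin did not pass in limma (adjusted p = 0.0815 with a pseudocount of 1 and 0.0914 with 0.5). Utp4, of the same subcomplex, carried 5112 and 4874 normalized footprints in the control libraries, 92.2 and 133 under DMDA-PatA, 557 and 300.3 under harringtonine and 316 and 313 under puromycin and was relatively lower with each drug, at -1.25, -0.72 and -1.54. Wdr43, of the same subcomplex too, had 0.35 (not passed), -0.50 and -0.58.

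Utp20, with the longest ORF, carried 6385 and 5634 normalized footprints in the control libraries, 112 and 140.4 under DMDA-PatA, 322 and 200.2 under harringtonine and 275 and 332 under puromycin, and its relative log2 changes were -1.33 (SE 0.19, adjusted p = 1.06e-05) under DMDA-PatA, -1.67 (SE 0.18, adjusted p = 2.08e-07) under harringtonine and -1.85 (SE 0.19, adjusted p = 1.54e-07) under puromycin. Utp3 had 2444 and 2355 in the control and 26.5 and 63.3 under DMDA-PatA, a relative log2 change of -1.58 (SE 0.22, adjusted p = 8.96e-06). Utp14a, a cofactor of a processome helicase, had 2565 and 2445 normalized footprints in the control, 87.8 and 94.2 under DMDA-PatA and 130.3 and 152 under puromycin, where its relative log2 change was lowest, at -1.69 (SE 0.22, adjusted p = 3.9e-06). Imp4, which binds the U3 snoRNA together with Imp3, had 63.9 and 42 under harringtonine against 1358 and 1262, a relative log2 change of -1.77 (SE 0.19, adjusted p = 1.94e-07), and stood at -0.11 under DMDA-PatA. Imp3 carried 437 and 399.8 normalized footprints in the control libraries, 38.5 and 60.9 under DMDA-PatA, 40.6 and 9.80 under harringtonine and 49.6 and 39.8 under puromycin. It was relatively higher under DMDA-PatA, at 1.13 (SE 0.23, adjusted p = 0.000587), and lower under harringtonine, at -1.32 (SE 0.27, adjusted p = 0.000288), and under puromycin, at -0.80 (SE 0.27, adjusted p = 0.0189). Rrp9, a U3 protein, carried 1757 and 1870.1 normalized footprints in the control libraries, 119 and 215 under DMDA-PatA, 465 and 267 under harringtonine and 221 and 152 under puromycin. It was relatively higher under DMDA-PatA, at 0.74 (SE 0.20, adjusted p = 0.00489), and under harringtonine, at 0.53, and lower under puromycin, at -0.85 (SE 0.21, adjusted p = 0.00194). The call under DMDA-PatA was lost without the first control library (0.63, adjusted p = 0.0711) or the second DMDA-PatA library (0.60, adjusted p = 0.0880).

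Of the 5 later 40S factors, 2 were relatively lower and 1 higher under DMDA-PatA, 3 and 0 under harringtonine, and 3 and 0 under puromycin. Rrp12, an export factor of the pre-ribosomal subunits, carried 3449 and 3310.5 normalized footprints in the control libraries, 63.8 and 106 under DMDA-PatA, 156 and 118 under harringtonine and 201 and 252 under puromycin. Its relative log2 changes were -1.12 (SE 0.19, adjusted p = 0.000114) under DMDA-PatA, -1.74 (SE 0.19, adjusted p = 2.23e-07) under harringtonine and -1.44 (SE 0.19, adjusted p = 4.2e-06) under puromycin. Nob1, the endonuclease that makes the 3' end of 18S ribosomal RNA, carried 2557 and 2503 normalized footprints in the control libraries, 216 and 283 under DMDA-PatA, 433 and 314 under harringtonine and 385 and 455 under puromycin. It was relatively higher under DMDA-PatA, at 0.89 (SE 0.19, adjusted p = 0.000649), and did not pass under harringtonine (0.12) or puromycin (-0.14), where its sign depended on the scaling or on 1 library. Tsr1 stood at 0.24 under DMDA-PatA, not passed, and fell under harringtonine and puromycin, at -1.22 and -1.27.

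Of the 13 factors of 60S assembly, 4 were relatively lower and 1 higher under DMDA-PatA, 6 and 3 under harringtonine, and 8 and 2 under puromycin. Wdr12, which forms the PeBoW complex with Pes1 and Bop1, had the largest relative fall under harringtonine and puromycin. Its ORF reads were 304 and 298 in the control, 5 and 5 under DMDA-PatA, 3 and 2 under harringtonine and 6 and 7 under puromycin. Each drug library thus held few reads, so that the filter of 10 reads was reached in the control libraries alone, and 0.671% (exact 95% interval 0.217 to 1.58%, counting error only) of the control's normalized footprints were left under harringtonine. The relative log2 changes were -2.20 under DMDA-PatA, -4.29 under harringtonine and -2.49 under puromycin. They are given without a test because of the way Wdr12 reached the filter, although Wdr12 is part of the counts of members called. Its partner Pes1 stood at 0.14, -0.29 and -0.07, none passed, and Bop1 at -0.45 and -0.49, not passed, and -1.16 under puromycin. Of these 3 genes, 52.4% of the Wdr12 ORF and 53.4% of the Pes1 ORF are repeated elsewhere in the genome.

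Nop2, a methyltransferase of 28S ribosomal RNA, carried 3797 and 3577 normalized footprints in the control libraries, 109 and 136 under DMDA-PatA, 185 and 97.3 under harringtonine and 292 and 296 under puromycin, and its relative log2 changes were -0.67 (SE 0.18, adjusted p = 0.00513) under DMDA-PatA, -1.88 (SE 0.18, adjusted p = 4.82e-08) under harringtonine and -1.20 (SE 0.18, adjusted p = 1.69e-05) under puromycin. Noc3l, which takes part in pre-60S assembly, fell relatively with each drug, at -1.30, -1.56 and -1.58. Nip7 and Nop16, both with ORFs under 600 nt, went the other way. Nip7 carried 1990.0 and 1827 normalized footprints in the control libraries, 145 and 248 under DMDA-PatA, 1291 and 476 under harringtonine and 539.7 and 698 under puromycin, with relative log2 changes of 0.91 (SE 0.21, adjusted p = 0.00173) under DMDA-PatA, 1.65 (SE 0.21, adjusted p = 1.45e-06) under harringtonine and 0.83 (SE 0.21, adjusted p = 0.00262) under puromycin. Nop16 carried 896 and 771 normalized footprints in the control libraries, 36.6 and 59.3 under DMDA-PatA, 646 and 310.1 under harringtonine and 376 and 323 under puromycin. It was relatively higher under harringtonine, at 2.01 (SE 0.18, adjusted p = 1.89e-08), and under puromycin, at 1.20 (SE 0.18, adjusted p = 2.12e-05), and stood at 0.09 under DMDA-PatA.

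The drugs were also compared with each other on the relative scale, in the same edgeR fit. With DMDA-PatA against harringtonine 12 members were lower and 15 higher, beside 18% and 15.8% of all features, and scaling to total ORF reads gave 8 and 19. DMDA-PatA against puromycin gave 9 lower and 19 higher, beside 19.1% and 17.8%. Harringtonine against puromycin gave 5 lower and 12 higher, beside 12.6% and 13.2%, and 3 lower and 11 higher without the 7 members with repeated stretches. The median log2 differences were 0.14, 0.29 and 0.06, and those of all features -0.01, -0.02 and 0.01. Of the 5 later 40S factors 4 were higher and 0 lower in DMDA-PatA against harringtonine, with Tsr1, a GTPase-like factor of the pre-40S particle, at 1.46 (SE 0.19, adjusted p = 5.65e-06). Without the first DMDA-PatA library, 7 members in all were lower in that comparison.

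Single genes set the extremes. Utp15 was lower under DMDA-PatA than under harringtonine by a relative log2 difference of -3.41 (SE 0.28, adjusted p = 5.4e-08) and lower than under puromycin by -3.06 (SE 0.29, adjusted p = 1.12e-07), while harringtonine and puromycin differed by 0.35 (SE 0.22, adjusted p = 0.252). Ncl was likewise lower under DMDA-PatA, at -1.20 against harringtonine and -1.40 against puromycin. Nop10 and Nop16 were lower under DMDA-PatA too, Nop10 at -1.53 and -1.21 and Nop16 at -1.92 and -1.11. In the other direction Imp3 was higher under DMDA-PatA, at 2.46 (SE 0.29, adjusted p = 2.32e-06) against harringtonine and 1.94 (SE 0.29, adjusted p = 3.1e-05) against puromycin. Mybbp1a was lower under puromycin than with both other drugs, at 1.5 for DMDA-PatA against puromycin and 1.48 for harringtonine against puromycin. The largest difference between harringtonine and puromycin was that of Fbl, -3.97 (SE 0.59, adjusted p = 6.56e-05), on the few reads given above.

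The footprints left on an ORF went with its length. In the 5 members with ORFs of up to 600 nt, Nhp2, Nop16, Nop10, Nip7 and Imp3, the median share left was 10.3% under DMDA-PatA, 46.3% under harringtonine and 37.3% under puromycin. In the 10 members with ORFs over 2400 nt it was 3.79%, 6.49% and 7.13%. Coding transcripts as a whole showed the same order, with 7.49%, 31.8% and 40.8% left up to 600 nt and 3.92%, 7.61% and 10.1% over 2400 nt. By these medians the longest ORFs kept a smaller share than the shortest with each drug, and the span was smallest under DMDA-PatA. Imp3, in the shortest class, kept 6.02% under harringtonine and 10.7% under puromycin, near the longest class. In the largest class, from 1200 to 1800 nt, the 17 members kept 4.67%, 10.2% and 12%, and coding transcripts 4.65%, 12% and 15.9%.

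**Figure D4:**
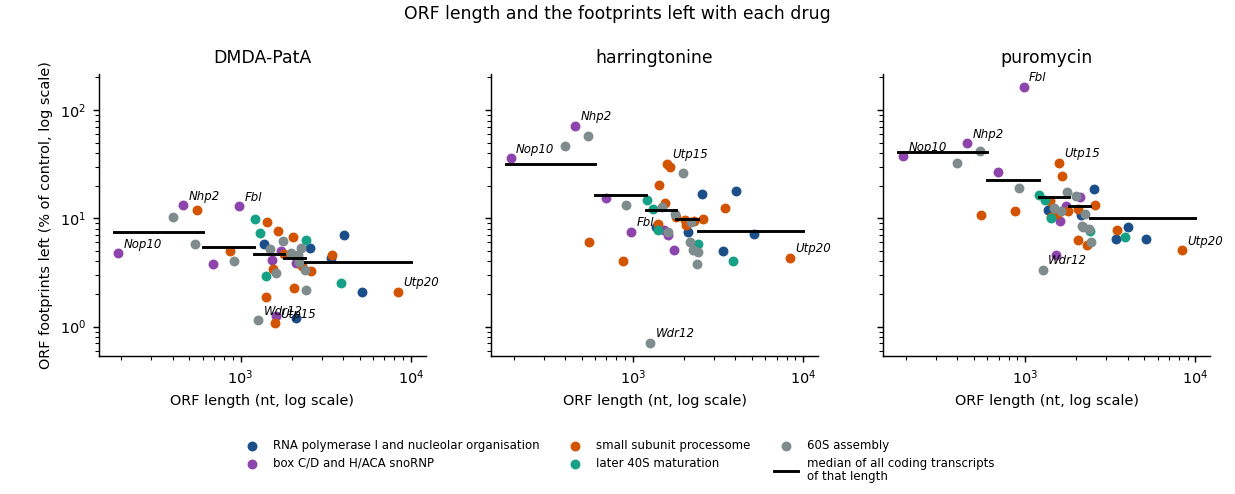
Percent of the control footprints left with each drug against ORF length in nt for the 46 members, both axes on a log scale, with black bars at the median of all coding transcripts in 5 length classes. The median of the members is highest up to 600 nt and lowest over 2400 nt under harringtonine (46.3% and 6.49%) and puromycin (37.3% and 7.13%), while single members depart from this, with Imp3 of the shortest class at 10.7% under puromycin, Fbl highest there at 164% and Wdr12 lowest under harringtonine at 0.671%.

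As a correlation, the relative log2 change and the log2 of ORF length had a Pearson r over the 46 members of -0.39 under DMDA-PatA, -0.45 under harringtonine and -0.62 under puromycin, and a Spearman rho of -0.36, -0.37 and -0.59. Over 12298 coding transcripts the Pearson values were -0.17, -0.46 and -0.53. The length of the listed 5' UTR had a Pearson r of -0.54 with the change by DMDA-PatA over the members and -0.27 over coding transcripts, and -0.40 over the 39 members without repeated stretches. With harringtonine and puromycin this value was -0.17 and -0.15 over the members. The points share their libraries and depth, and are described without a test.

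Footprints on the 5' UTR behaved differently from those on the ORF. Of the members' footprints on 5' UTR and ORF, 2.82% and 3.36% lay on the 5' UTR in the control libraries, 42.9% and 46.5% under DMDA-PatA, 38% and 43.6% under harringtonine and 22.8% and 22% under puromycin. All drug libraries lay far above both controls. The coding transcripts as a whole had 4.01% and 4.27%, 38.2% and 38.6%, 29.1% and 32.8%, and 20.4% and 17.7%. Ncl alone held 57.5% to 67.4% of the members' normalized 5' UTR footprints in the ribosome profiling libraries. Without Ncl the shares on the 5' UTR were 1.47% and 1.40% in the control, 24.7% and 25% under DMDA-PatA, 18.5% and 21.9% under harringtonine and 10.4% and 10.4% under puromycin.

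The level on the 5' UTR was tested on the authors' scale for the 36 members that reached 10 reads in 2 or more libraries. With DMDA-PatA 6 were lower and 11 higher by edgeR's adjusted p, beside 29% and 14.7% of 6647 features. Scaling these reads with TMM factors gave 2 lower and 20 higher. Without the first or second control library 5 or 6 members were higher and 2 or 3 lower, and without the first DMDA-PatA library 2 were lower. With harringtonine 0 were lower and 21 higher, beside 5.21% and 35.1%, and TMM factors gave 2 and 15. Without the first or second control library 13 or 12 were higher, and without the first harringtonine library 12. No member passed a lower change under harringtonine at an unadjusted p under 0.05 or in DESeq2. With puromycin 0 were lower and 0 higher, beside 0.406% and 0.557%, where 1 was lower and 1 higher at an unadjusted p under 0.05 and DESeq2 called 0.

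The 6 members lower under DMDA-PatA were Gar1, Nhp2, Polr1a, Rrp1b, Rrp9 and Wdr12. In Nhp2 the 5' UTR reads were 554 and 628 in the control, 298 and 383 under DMDA-PatA, 1094 and 1184 under harringtonine and 184 and 404 under puromycin, and the log2 change under DMDA-PatA was -1.29 (SE 0.44, adjusted p = 0.0105) by edgeR. Large rises under DMDA-PatA on the 5' UTR were 3.31 (SE 0.62, adjusted p = 1.42e-06) for Nip7 and 3.19 (SE 0.83, adjusted p = 0.00063) for Nol6. They started from few control reads, 4 and 9 for Nip7 and 1 and 3 for Nol6, against 71 and 109 and 19 and 34 under DMDA-PatA. Rrp1 had 1 and 1 reads in the control and 18 and 17 under DMDA-PatA. Rrp1 and Imp4 reached 10 reads in 2 libraries through the DMDA-PatA libraries alone, so that Rrp1 had to be high there and its rise is given without a test. Without both, a choice made after seeing the data, 6 of 34 members were lower and 10 higher, beside 30.7% and 12% of the features that reach the filter without those libraries. The ratio of normalized 5' UTR footprints, DMDA-PatA to control, was 9.18 for Nol6, with an exact 95% interval of 3.38 to 34.9 that covers counting error only. For Rrp1 it was 12.1, given without an interval because of the way Rrp1 reached the filter. Nop10 rose from 49 and 42 to 263 and 382 reads, a log2 change of 2.32 (SE 0.48, adjusted p = 1.64e-05). Nip7, Nol6 and Nop10 had more 5' UTR footprints in each DMDA-PatA library than in each control library. With harringtonine the largest rises were those of Polr1b, Utp18 and Nol6, at 2.69, 2.62 and 2.47.

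The ratio of 5' UTR to ORF reads within each library does not depend on the size factors. By the interaction of region and condition in edgeR it was higher for 36 of 36 members under DMDA-PatA and for 36 under harringtonine, beside 93.5% and 95.4% of 6497 transcripts. With puromycin it was higher for 32 members beside 78.4%, and lower for 1 beside 0.0616%. Without Rrp1 and Imp4 it was higher under DMDA-PatA for 34 of 34, beside 93.2%. These shares of members stand near those of all transcripts. The median log2 change of the ratio was 5.66 under DMDA-PatA, 4.60 under harringtonine and 3.11 under puromycin, and 4.34, 3.97 and 2.52 over all transcripts tested.

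**Figure D5:**
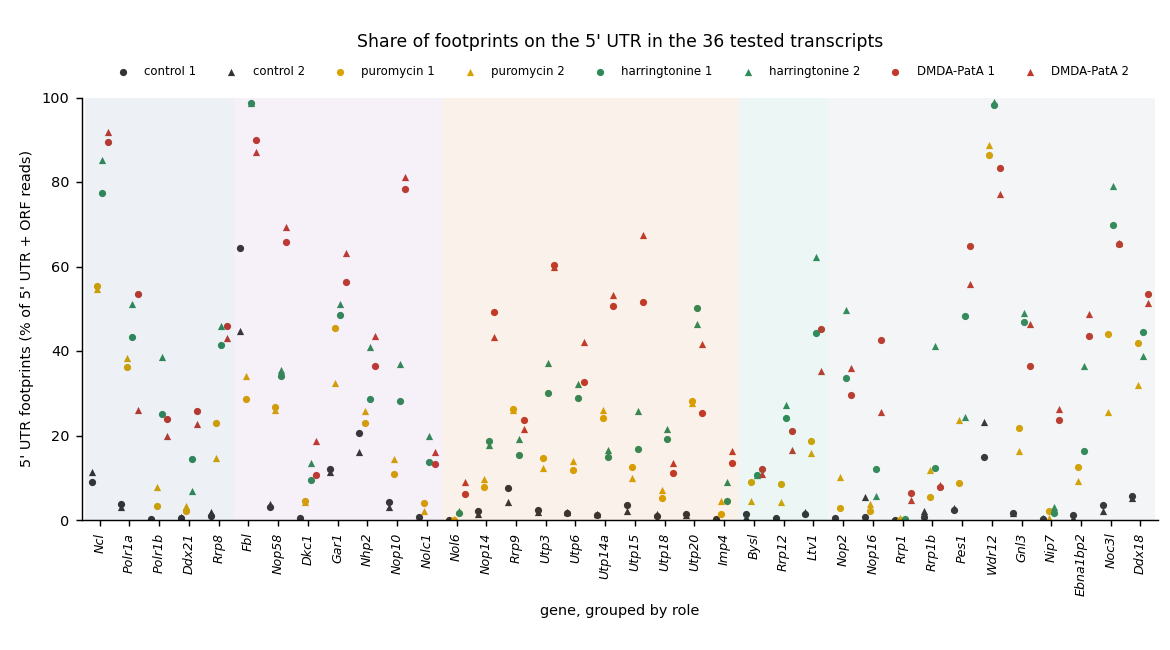
Percent of a transcript's footprints on the 5' UTR for the 36 members tested, with 1 point for each of the 8 ribosome profiling libraries. Drug libraries lie above the controls for most members, and Fbl has its puromycin libraries below its controls.

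In Ncl the percent of footprints on the 5' UTR was 8.89% and 11.3% in the control, 89.6% and 91.7% under DMDA-PatA, 77.3% and 85.3% under harringtonine and 55.3% and 54.8% under puromycin. Each drug library was above both controls, and the log2 changes of the ratio were 6.45, 5.31 and 3.45, all passed. The Ncl 5' UTR listed by the authors has 232 nt, where 177 nt precede the frame of the same ORF length in GENCODE M21. The part of this difference in these values was not tested. In Nop10 the percent was 4.23% and 3.17% in the control, 78.3% and 81.3% under DMDA-PatA, 28.2% and 36.8% under harringtonine and 10.9% and 14.5% under puromycin, and the change under DMDA-PatA was 6.69 (SE 0.40, adjusted p = 8.49e-12). Among the members that reached the filter without the DMDA-PatA libraries, Nol6 had the largest change under DMDA-PatA, 7.41 (SE 0.55, adjusted p = 1.11e-10). Rrp1, which did not, went from 0.0269% and 0.0222% to 6.47% and 4.72% and is given without a test. Nop2 and Ebna1bp2 followed at 6.66 and 6.66.

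With harringtonine the largest changes of the ratio were 8.25 for Wdr12, 7.20 for Nop2, 7.10 for Polr1b, 6.62 for Noc3l and 6.47 for Rrp12. The Wdr12 ORF reached the filter in the control libraries alone and had 5 reads in all under harringtonine. The Wdr12 changes of the ratio are therefore given without a test for each drug. In Wdr12, which has the longest listed 5' UTR, the percent on the 5' UTR was 14.8% and 23.2% in the control, 83.3% and 77.3% under DMDA-PatA, 98.2% and 99% under harringtonine and 86.4% and 88.7% under puromycin. Its 5' UTR reads were 53 and 90 in the control and 162 and 204 under harringtonine, while the ORF was left with few. With puromycin Wdr12, Utp20, Utp14a, Polr1b and Noc3l led, at 4.93, 4.83, 4.65, 4.25 and 4.10. Nhp2 had the smallest changes under DMDA-PatA and harringtonine, 1.59 (SE 0.36, adjusted p = 0.000295) and 1.25 (SE 0.35, adjusted p = 0.00221), from 20.5% and 16% in the control to 36.5% and 43.6% and 28.6% and 41%. It did not pass under puromycin, nor did Nop16 and Nol6.

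The 1 member with a lower ratio was Fbl under puromycin. The percent of its footprints on the 5' UTR was 64.3% and 44.6% in the control, 90.0% and 87.2% under DMDA-PatA, 98.6% and 98.6% under harringtonine and 28.6% and 34.1% under puromycin, from at most 143 reads on the 5' UTR in a library. The log2 change of the ratio under puromycin was -1.31 (SE 0.58, adjusted p = 0.0432). It did not pass in DESeq2 (adjusted p = 0.0812), without a filter on low counts (0.0930 in edgeR), without the first control library (0.287), or without either puromycin library (0.148 and 0.0898).

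A wider list of 84 other ribosome biogenesis genes, of which 83 were tested on the ORF, gave a frame for these values. On the relative scale 30 were lower and 15 higher under DMDA-PatA, 36 and 21 under harringtonine, and 44 and 10 under puromycin by edgeR, with medians of -0.14, -0.20 and -0.52. The lowest with each drug was Nsa2, a pre-60S factor, with 49 and 62 ORF reads in the control, 0 and 1 under DMDA-PatA, 1 and 1 under harringtonine and 0 and 0 under puromycin, too few for a fold change. Others relatively low were Tex10 under DMDA-PatA, at -2.30, Nol8 and Tcof1 under harringtonine, at -2.36 and -2.01, and Mdn1 and Rpf2 under puromycin, at -2.55 and -2.22. Those highest included Mdn1 and Npm3 under DMDA-PatA, at 2.05 and 1.47, Mrto4 and Gnl2 under harringtonine, at 2.75 and 2.72, and Eif6 and Npm1 under puromycin, at 2.18 and 2.04. Mdn1, a giant ATPase of pre-60S maturation, thus stood high under DMDA-PatA and low under puromycin. The ratio of control footprints to transcriptome reads was higher for 78 of the 84 and lower for 1, Rsl24d1, with a median log2 ratio of 0.87. The ratio of 5' UTR to ORF reads was higher for 47 of 47 under DMDA-PatA and under harringtonine, and for 36 under puromycin.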

How the data were processed

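Ribosome footprints of control, DMDA-PatA, harringtonine and puromycin treated CGR8 cells (2 libraries each) and 2 transcriptome libraries of untreated cells were used. The authors digested lysates with RNase I, aligned SOLiD reads to mm10 (GRCm38) with LifeScope (version not given in the sources used here), left out reads with multiple matches or match quality under 10, kept matches of 26 to 36 nt, and counted P-sites on the 5' UTR and ORF of 1 transcript per gene. Short reads over splice junctions can, by their methods, go to processed pseudogenes. The submitters' processing notes also name Picard 1.38. The values the authors deposited are signal, that is, counts divided by size factors from a spike-in RNA (ribosome profiling) or between the replicates (transcriptome). In every library the smallest positive value stood for 1 read, 100.0% of positive values were whole multiples of it (tolerance 0.01), and reads were recovered by division.

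Tests used edgeR 4.0.16 in R 4.3.3 (quasi-likelihood, 4 conditions in one fit, Benjamini-Hochberg, adjusted p of 0.05) on recovered reads, for features that reached 10 reads in 2 or more libraries. The authors' size factors or TMM factors set the scale, as stated. Control footprints and transcriptome reads were fitted apart. The standard error (SE) of an edgeR log2 change is its absolute value divided by the square root of the F statistic. The test itself gives no SE, so these values and the bars in the figures are approximate. DESeq2 1.42.0, limma 3.58.1, other scalings and filters, leaving out each library, and a replicate block were alternatives. On simulated data the fits showed little bias and few false calls, but they missed many changes in features with few reads and fell short of the recovery first set as a pass mark, which was then dropped, so the lack of a call there carries little weight. Tables and plots were made in Python 3.11.15 (matplotlib 3.10.9, pandas 2.3.3, numpy 2.4.6). Groups came from the sample labels. Members and gene lists were chosen with earlier results of these data known. Values in the text follow a rule, namely the members with the largest and smallest change in each role group, up to 5 in each direction for each drug and for the 5' UTR share, the ends of ORF length and control density, and the 3 highest and lowest footprint ratios. Polr1a, Utp4, Utp18, Wdr43, Tsr1, Bop1, Pes1, Ddx18, Rrp1b and Utp6 fall outside it and were named after their values were seen. The markers examined were 9 of ES cells and 7 of other cells. Precision is limited by 2 libraries per group, and reads cover counting error only. Of the wider list, the symbols Utp11l and Nol12 were not matched and are not analysed here. Protein sequences were not used here.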

Additional observations from a re-analysis of the deposited data

How the results depend on the processing

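Leaving out single libraries, changing the scaling, the filter or the tool, and blocking by replicate number kept most counts over the members within 1.5 times. The members' median relative log2 change under DMDA-PatA ran from -0.30 (without the second DMDA-PatA library) to -0.13 (total ORF reads). Under harringtonine it ran from -0.81 (total ORF reads) to -0.55 (only the 2 groups compared). Under puromycin it ran from -0.67 (total ORF reads) to -0.57 (without the first puromycin library). On the authors' scale, TMM factors in place of the size factors gave 16 members lower on the ORF under DMDA-PatA, 26 under harringtonine and 29 under puromycin, since this takes out the common fall. Fitting only the 2 groups compared gave 9 members relatively higher under DMDA-PatA. With DMDA-PatA against harringtonine, 7 to 12 members were lower as each library was left out (7 without the first DMDA-PatA library), and under harringtonine against puromycin 3 were lower without the 7 members with repeated stretches, an alternative added after seeing the data. On the 5' UTR under DMDA-PatA, TMM factors gave 2 lower and 20 higher, and leaving out single libraries 2 to 6 lower and 5 to 11 higher. With harringtonine they gave 2 lower, and 12 to 24 higher. The cause was not tested. Some values that did not pass the test changed sign. The median log2 difference of harringtonine and puromycin ran from -0.037 (without the first puromycin library) to 0.12 as each library was left out and was -0.093 by total ORF reads. The relative change of Nob1 was -0.049 for harringtonine by total ORF reads, and for puromycin ran from -0.25 to 0.037 (without the first puromycin library), that of Ddx21 from -0.0054 (same library) to 0.16, and the footprint ratio of Rrp8 from -0.048 (without the second transcriptome library) to 0.10, with -0.012 without the first control library and -0.099 by total ORF reads.

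The replicate numbers showed no pairing of the ribosome profiling libraries across groups. Deviations of their same-numbered libraries correlated between -0.021 and 0.0511. Control and transcriptome libraries were not compared in this way. By the methods total RNA came from part of the lysate, so these libraries may share samples, which was not tested. With the replicate block 46, 44 and 44 members were lower on the ORF under DMDA-PatA, harringtonine and puromycin, and 17, 26 and 30 relatively lower. No count of calls moved by over 1.5 times with this pairing. Whether the size factors are swapped between DMDA-PatA and harringtonine was not settled. With the swap, 46, 46 and 45 members were lower on the ORF, 5 and 14 lower and higher on the 5' UTR under DMDA-PatA, and 22 higher under harringtonine. Depth limits Fbl, Wdr12 and the 10 members without a test on the 5' UTR.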
